A study of Brassica napus with 12 samples.

Results

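In polysomal RNA of canola (Brassica napus) leaves, 25 of 60756 gene IDs differed from the PEG control in both PEG-selected lines while their mean differed little between the EUE epiline and its own control. Of these, 8 were raised and 17 were lowered in PEG-1 and PEG-2. The 25 were chosen by their measured levels. CPM here is an ID's count as a share of its library's total, scaled so that each library sums alike, and L is log2(CPM + 0.5). An ID was taken when its mean over the 6 PEG libraries was 1 CPM or more, all 4 PEG-1 and PEG-2 libraries lay on 1 side of both PEG control libraries, and mean L differed from the control by 0.8 or more in each line. The mean L of the EUE epiline also had to lie within 0.3 of the EUE control. These differences are therefore a description of the choice and support nothing by themselves.

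Leaf 4 was taken from 26-day-old plants that had spent 2 weeks on agar with sucrose and 12 days in greenhouse soil, and none was treated. The PEG control and the selected lines PEG-1 and PEG-2 had 2 libraries apiece. A separate control, the EUE control, and the selected line called the EUE epiline had 3 libraries apiece. Below, the first 3 groups are called the PEG experiment and the last 2 the EUE experiment. The series' design text describes selected epilines with low respiration and a high content of NAD(P)H. It speaks of triplicates, whereas the labels give the PEG groups 2 libraries each, and the labels are followed here. All groups share the cultivar, age, tissue and polysome preparation. Every library is labelled a biological replicate, and how many plants a library pools is not given in the sources used here. If the libraries of a group share plants or a culture batch, the p-values below measure only the spread between these libraries. Library totals ran from 36210542 to 42696798 counts.

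An epiline is a line bred by repeated selection within near-identical plants, in which heritable differences are thought to lie largely in chromatin marks such as DNA methylation. PEG is the usual short form of polyethylene glycol, which draws water from roots and is used in plant work to mimic drought, although the labels do not spell the name out. Polysomes are mRNAs that carry several ribosomes. A transcript can become more abundant in the polysome fraction because more of it was made, because less of it was broken down or because more of it was being translated. A leaf is also a mixture of cell types, so fewer cells of a type and less RNA per cell cannot be told apart. The IDs are numbers with the prefix ERF, ERC or both, 0 of them matched the RefSeq gene table, and so no function, leaf marker or sequence can be given for any member.

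The PEG part of the choice alone was met by 323 raised and 45 lowered IDs, out of 27064 with a mean of 1 CPM or more. Lying above both controls with all 4 line libraries was met by 8.51% of the 27064, and lying below both by 4.66%. The EUE limit was met by 83.1% of the 27064 IDs but by only 8 of the 323 raised IDs, or 2.48%, and by 17 of the 45 lowered IDs, or 37.8%. Another 314 of the 323 were higher in the EUE epiline by 0.3 or more, and 1 was lower by that much. The median EUE difference of the 323 was 1.82. Of the 45 lowered IDs, 26 were also lower in the EUE epiline by 0.3 or more, 2 were higher, and their median EUE difference was -0.41. The raised members are thus the few with a small mean EUE difference among IDs whose EUE mean was mostly higher in the epiline, whereas the lowered members were a larger part of their list.

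**Figure D1:**
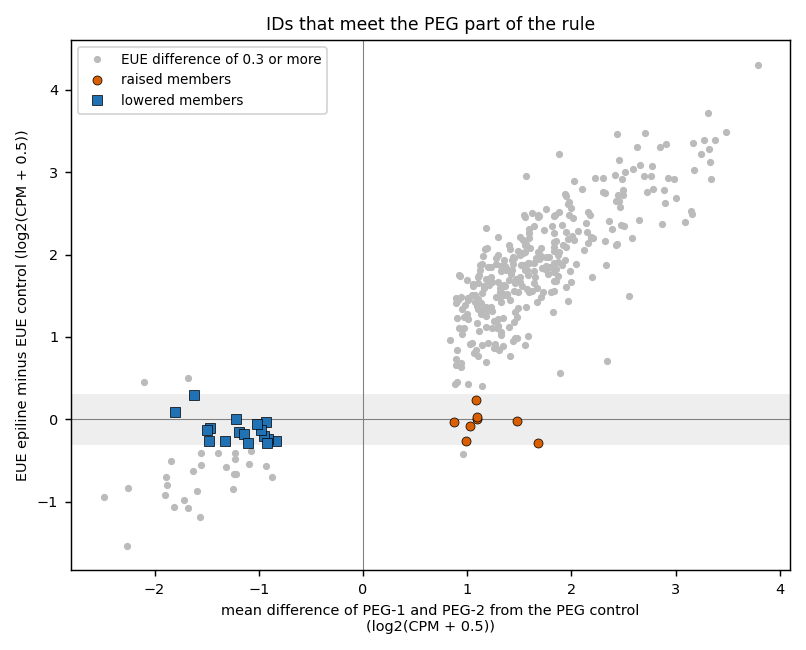
Each point is 1 of the 368 IDs that met the PEG part of the choice, with the mean difference of PEG-1 and PEG-2 from the PEG control on the x axis and the EUE epiline minus EUE control difference on the y axis, both in log2(CPM + 0.5). The grey band marks 0.3 on each side of 0. The 8 raised members lie in the band far below most of the raised IDs, and the 17 lowered members lie in it among lowered IDs that mostly lie below it.

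Members at the limits were close to IDs that were not taken. ERF87899-ERC45257 was just inside the size limit, with an L difference of 0.83 in PEG-2, and ERF78149-ERC59239 was just outside it at 0.75. Among lowered IDs, ERF61936 was just inside at -0.81 in PEG-2 and ERF59689-ERC39644 was just outside at -0.79 in PEG-1. At the EUE limit, ERF91468 was inside at -0.29 and ERF79313-ERC55060 outside at 0.40, and among lowered IDs ERF63660-ERC32131 was inside at 0.30, rounded up from below the limit, and ERF64176-ERC41404 outside at -0.38.

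The raised members were scarce to moderately abundant, with means over the 6 PEG libraries from 1.12 to 22.4 CPM and a median of 2.64. All 27064 IDs had a median of 7.63 CPM. Their L differences from the PEG control ran from 0.84 to 1.57 in PEG-1, with a median of 1.18, and from 0.83 to 2.02 in PEG-2, with a median of 0.98. The median difference over all 27064 IDs was 0.03 for PEG-1, 0.02 for PEG-2, and 0.03 for the EUE epiline.

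The most abundant raised member was ERF86998-ERC53589. It was at 9.59 and 10.2 CPM in the PEG control, 29.5 and 31.3 CPM in PEG-1, and 23.1 and 30.8 CPM in PEG-2. The EUE control libraries held 0.538, 11.7 and 4.64 CPM, and the EUE epiline 0.903, 7.86 and 4.79 CPM. The PEG lines were about alike and well apart from their control, whereas EUE libraries of 1 group differed from each other by far more than the EUE group means. The EUE libraries numbered 1 were lowest and those numbered 2 highest in both EUE groups.

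ERF91468 had the largest rise in PEG-2. It was at 0.331 and 0.423 CPM in the PEG control, 2.58 and 1.10 CPM in PEG-1, and 2.82 and 3.31 CPM in PEG-2. In the EUE experiment it held 0.0538, 1.41 and 0.375 CPM in the control and 0.0531, 0.597 and 0.342 CPM in the epiline. It was the only raised member in which an EUE library, EUE control replicate 2, reached above a PEG line library, PEG-1 replicate 2.

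ERF63939-ERC30402, the second most abundant, was at 5.84 and 5.76 CPM in the PEG control, 9.79 and 18.0 CPM in PEG-1, and 8.88 and 17.9 CPM in PEG-2. Replicate 2 was about as much higher than replicate 1 in PEG-1 as in PEG-2, and the control libraries were nearly equal. Its EUE values ran from 2.76 to 6.47 CPM, below every PEG line library.

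ERC44104 was not detected in the EUE experiment, with 0 counts in all 6 libraries. It held 0.551 and 0.264 CPM in the PEG control, 0.914 and 2.35 CPM in PEG-1, and 1.36 and 1.27 CPM in PEG-2. A floor of 3 read pairs, 6 counts, is 0.163 CPM in the smallest EUE library. The mean of ERC44104 was 10.0-fold above this floor in PEG-1, 8.06-fold in PEG-2 and 2.50-fold in the PEG control. These are not strict bounds, since the exact 95% upper limits for 0 counts in the EUE libraries were 0.173 to 0.200 CPM. The EUE difference of 0 in ERC44104 comes from 2 groups without a count. It cannot show whether the EUE selection left this transcript unmoved. PEG control replicate 2 rests on 10 counts, 5 read pairs, with an exact 95% binomial interval from 0.0858 to 0.616 CPM for counting error alone.

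ERF87321 was also close to absent from the EUE libraries. Its PEG control values were 0.551 and 0.740 CPM, and the 4 line libraries lay between 1.62 and 1.99 CPM. In the EUE experiment 4 of the 6 libraries had 0 counts, EUE control replicate 3 had 26 counts and EUE epiline replicate 3 had 6. Its EUE difference therefore rests on the libraries numbered 3.

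The remaining 3 raised members had counts in every EUE library. ERF60859-ERC47971 was at 1.05 and 2.96 CPM in the PEG control, 4.57 and 5.07 CPM in PEG-1, and 4.28 and 3.15 CPM in PEG-2. Its PEG-2 replicate 2 thus lay only slightly above PEG control replicate 2, and its EUE libraries held 0.435 to 1.31 CPM. ERF87899-ERC45257 was at 2.48 and 2.69 CPM in the PEG control, 5.54 and 9.52 CPM in PEG-1, and 4.33 and 5.74 CPM in PEG-2, with EUE values of 2.44 to 3.88 CPM. ERC34355 was at 0.551 and 0.581 CPM in the control, 1.72 and 1.15 CPM in PEG-1, and 0.940 and 2.26 CPM in PEG-2, with EUE values of 0.293 to 0.744 CPM. In these last 2 members the EUE and PEG control levels were close to each other.

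**Figure D2:**
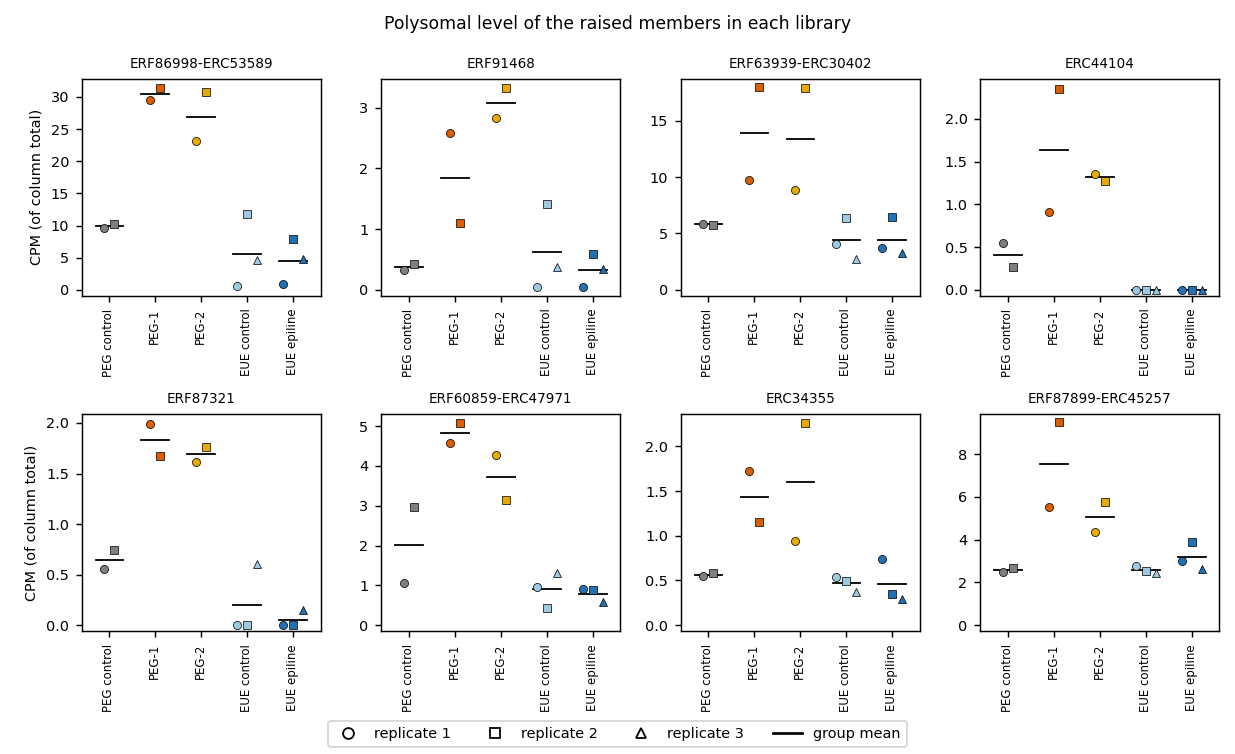
Level of each of the 8 raised members, in CPM of the column total on a linear axis that starts just below 0 in each panel, by group, with 1 point per library (circle, square and triangle for replicates 1, 2 and 3) and a bar at the group mean. The orange and yellow PEG line points stand above the grey PEG control points in every panel, and the blue EUE points lie low, at 0 for ERC44104.

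In 7 of the 8 raised members all 6 EUE libraries lay below all 4 PEG line libraries, ERF91468 being the exception. Among all 27064 IDs 8.18% did so, but the choice had already put the line libraries high, so nothing is read from the gap. Against the PEG control, the EUE libraries overlapped in 7 of the 8, and lay wholly below it in ERC44104. All 6 EUE libraries lay below both PEG controls in 7.72% of all IDs. The mean L of the EUE libraries was nearer to the PEG control than to the lines in all 8, although it was 1.38 below the PEG control in ERF86998-ERC53589. Among the lowered members the same held in 9 of 17. The choice had set the lines apart from the control, and no share over all IDs was taken. Nothing is therefore read from either count.

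The lowered members were equally scarce, with means over the PEG libraries from 1.10 to 15.1 CPM, a median of 2.54, and 12 of the 17 under 5 CPM. Their L differences ran from -2.26 to -0.83 in PEG-1, with a median of -1.13, and from -1.38 to -0.81 in PEG-2, with a median of -0.96. The EUE differences ran from -0.29 to 0.30 with a median of -0.15, and 14 of the 17 were below 0.

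ERF78021-ERC58118 fell furthest by the smaller of the 2 line differences. It was at 4.08 and 6.39 CPM in the PEG control, 0.968 and 0.471 CPM in PEG-1, and 1.62 and 1.71 CPM in PEG-2. The EUE libraries held 1.34, 0.489 and 0.234 CPM in the control and 0.903, 0.398 and 0.782 CPM in the epiline. Both EUE groups thus lay at the low level of the PEG lines, and the PEG control was the group that stood apart.

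ERF76437 was the other lowered member with all 6 EUE libraries below both PEG controls. It held 1.98 and 2.85 CPM in the PEG control, 0.538 to 0.994 CPM in the 4 line libraries and 0.196 to 1.38 CPM in the EUE libraries.

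The opposite held for ERF57431 and ERF70341, where every EUE library was above every PEG library, controls included. ERF57431 was at 2.37 and 2.32 CPM in the PEG control, 0.215 and 1.88 CPM in PEG-1, and 0.731 and 0.663 CPM in PEG-2. In the EUE experiment it held 4.79, 7.39 and 3.84 CPM in the control and 6.22, 5.03 and 3.08 CPM in the epiline. PEG-1 replicate 2 was nearly at the control level, so the PEG-1 value rests largely on replicate 1. ERF70341 showed the same split within PEG-1, at 2.58 and 7.90 CPM, with 9.42 and 10.5 CPM in the PEG control, 5.22 and 4.75 CPM in PEG-2 and 11.0 to 19.9 CPM in the EUE libraries. Beside 2 of 17 for each pattern, 13.0% of all IDs had all 6 EUE libraries above both PEG controls, and 10.7% had them above all 4 line libraries.

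The most abundant lowered members were ERF70402-ERC40557 and ERF96047-ERC60499. ERF70402-ERC40557 was at 23.8 and 23.6 CPM in the PEG control, 6.72 and 10.1 CPM in PEG-1, and 12.0 and 14.5 CPM in PEG-2. In the EUE control it held 7.37, 26.1 and 4.26 CPM, and in the EUE epiline 10.1, 7.56 and 7.48 CPM. A single EUE library, EUE control replicate 2, reached the PEG control level, and the other 5 lay with the PEG lines or below them.

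ERF96047-ERC60499 was at 19.5 and 22.7 CPM in the PEG control, 6.13 and 6.33 CPM in PEG-1, and 8.25 and 8.01 CPM in PEG-2, so replicates of the PEG groups were close. Its EUE control libraries held 17.1, 27.4 and 3.93 CPM and its EUE epiline libraries 22.7, 12.2 and 5.13 CPM. EUE libraries of 1 group therefore spanned the whole distance between the PEG control and the PEG lines.

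In 14 of 17 lowered members the fall was larger in PEG-1 than in PEG-2. The size of the difference was larger in PEG-1 in 90.8% of all 368 IDs that met the PEG part, most of them raised. In 3 lowered members the gap between the lines had an unadjusted edgeR p under 0.05 (adjusted p = 1). The same held for 591 of all 36410 IDs. ERF63660-ERC32131 was at 7.11 and 10.0 CPM in the PEG control, 1.56 and 1.20 CPM in PEG-1, and 5.74 and 2.76 CPM in PEG-2. ERF54665-ERC24003 was at 6.23 and 7.13 CPM in the control, 1.13 and 1.31 CPM in PEG-1, and 5.27 and 2.10 CPM in PEG-2. In both of these PEG-2 replicate 1 lay not far below the control. ERF93943-ERC59281 was at 2.48 and 1.95 CPM in the control, 0.215 and 0.157 CPM in PEG-1, which are 8 and 6 counts, and 0.836 and 0.939 CPM in PEG-2.

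The other 8 lowered members had differences from -1.59 to -0.83 in PEG-1 and from -1.09 to -0.81 in PEG-2. ERC57435 had PEG replicates close to each other, at 3.03 and 2.85 CPM in the control, 1.45 and 1.20 CPM in PEG-1, and 1.46 and 1.22 CPM in PEG-2. ERF77614 followed the same course at 3.91 and 2.96 CPM, 1.61 and 1.15 CPM, and 1.93 and 1.16 CPM. ERC57665 was the member of the 8 with the largest PEG-1 difference, at 3.47 and 2.69 CPM in the control, 0.807 and 0.575 CPM in PEG-1, and 1.62 and 0.884 CPM in PEG-2. ERF61936, ERF77182, ERC33326, ERF64650 and ERF64656-ERC35147 make up the rest. In ERF64650 and ERF64656-ERC35147 the PEG control libraries differed from each other by more than the line means did from the nearer control, at 2.92 and 1.37 CPM and at 6.23 and 12.1 CPM.

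**Figure D3:**
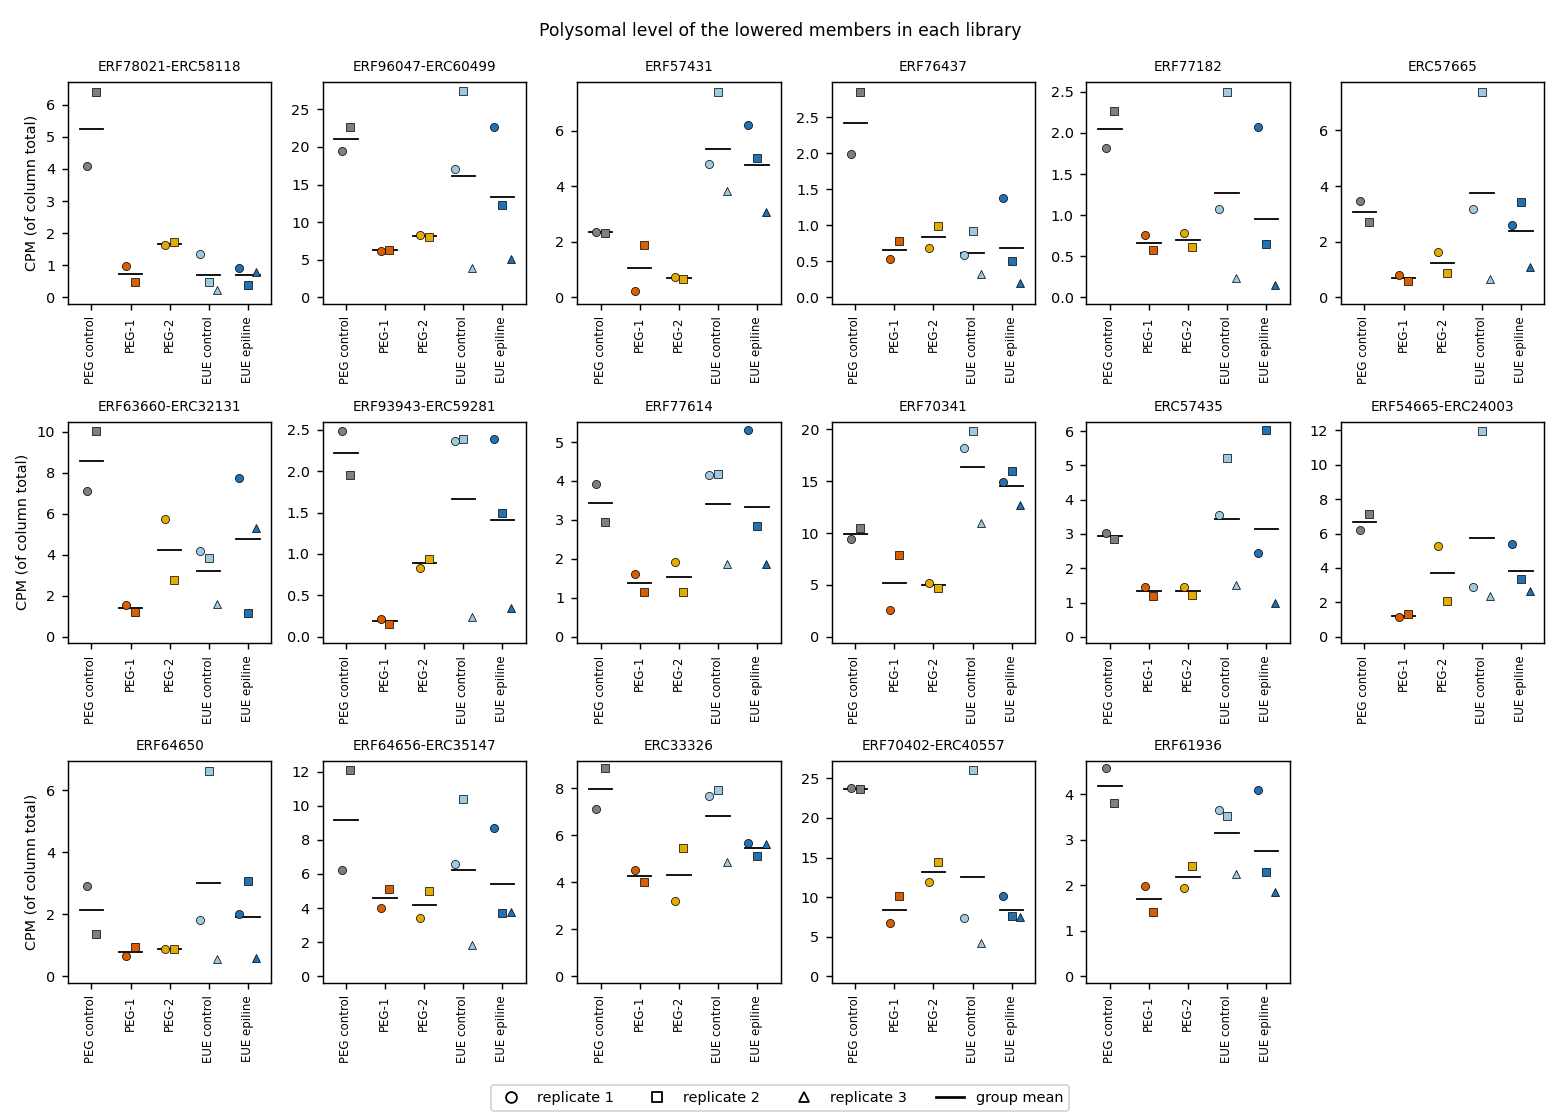
Level of each of the 17 lowered members, in CPM of the column total on a linear axis that starts just below 0 in each panel, by group, with 1 point per library (circle, square and triangle for replicates 1, 2 and 3) and a bar at the group mean. The PEG line points lie below the grey PEG control points in every panel, and the EUE control triangle, replicate 3, is the lowest EUE control point in all 17.

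The lowered members shared an order of the EUE libraries. The choice asked for no order, but its EUE limit used the means of these same libraries, so the counts are a description. EUE control replicate 3 was the lowest of its group in 17 of 17, against 39.2% of all IDs, and EUE control replicate 2 was the highest in 14 of 17, against 40.7%. EUE epiline replicate 3 was the lowest of its group in 13 of 17, against 37.3% of all IDs. The members move together, so 17 does not count separate trials. The 28 IDs that met the PEG part downwards but not the EUE limit had the same order, with EUE control replicate 3 lowest in 26 and EUE control replicate 2 highest in 24. Among the raised members EUE control replicate 3 was lowest in 3 of 8 and replicate 2 highest in 3 of 8, with ERC44104 at 0 in all 3.

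Libraries of the EUE groups with the same number deviated together over IDs in general, so the numbers pair them. The EUE groups were also wide for the lowered members. The range of L over the EUE control libraries had a median of 1.52 over the 17, and 1.30 in the EUE epiline, against 0.55 and 0.56 over all 27064 IDs. In 9 of the 17 the range within the EUE control was larger than the mean PEG difference. The raised members had medians of 1.01 and 0.56. Within the pairs, EUE epiline replicate 2 was below EUE control replicate 2 in 16 of 17 lowered members, while the same held for replicate 1 in 5 and for replicate 3 in 6. A mean EUE difference near 0 was thus made up of pairs that went opposite ways.

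For that reason a small mean EUE difference does not show that these transcripts were left alone in the EUE epiline. From the spread within the EUE groups (3 libraries each, 4 degrees of freedom), the 95% interval of the EUE difference reached -0.8 or below in 17 of 17 lowered members. It reached 0.8 or above in 4 of the 8 raised ones. ERF96047-ERC60499 had an interval from -2.89 to 2.63, and ERF86998-ERC53589 one from -3.63 to 3.58. The pairs were then used in place of the groups' spread (2 degrees of freedom), an alternative added after seeing the data. The paired interval again reached -0.8 in 17 of 17 lowered members, and 0.8 in 5 of the 8 raised ones. It was much narrower for ERF63939-ERC30402, from -0.39 to 0.44 instead of -1.13 to 1.18, and wider for ERF60859-ERC47971, from -1.71 to 1.56 instead of -0.93 to 0.78. ERF87899-ERC45257 was short of 0.8 without the pairs, from -0.17 to 0.65, but not with them, from -0.37 to 0.85. ERC34355 was short of 0.8 either way, from -0.63 to 0.56 and, paired, from -0.68 to 0.61. ERC44104 has no usable interval, since all 6 of its EUE counts were 0. Whether the PEG and EUE differences of a member differ was not tested, because both entered the choice.

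**Figure D4:**
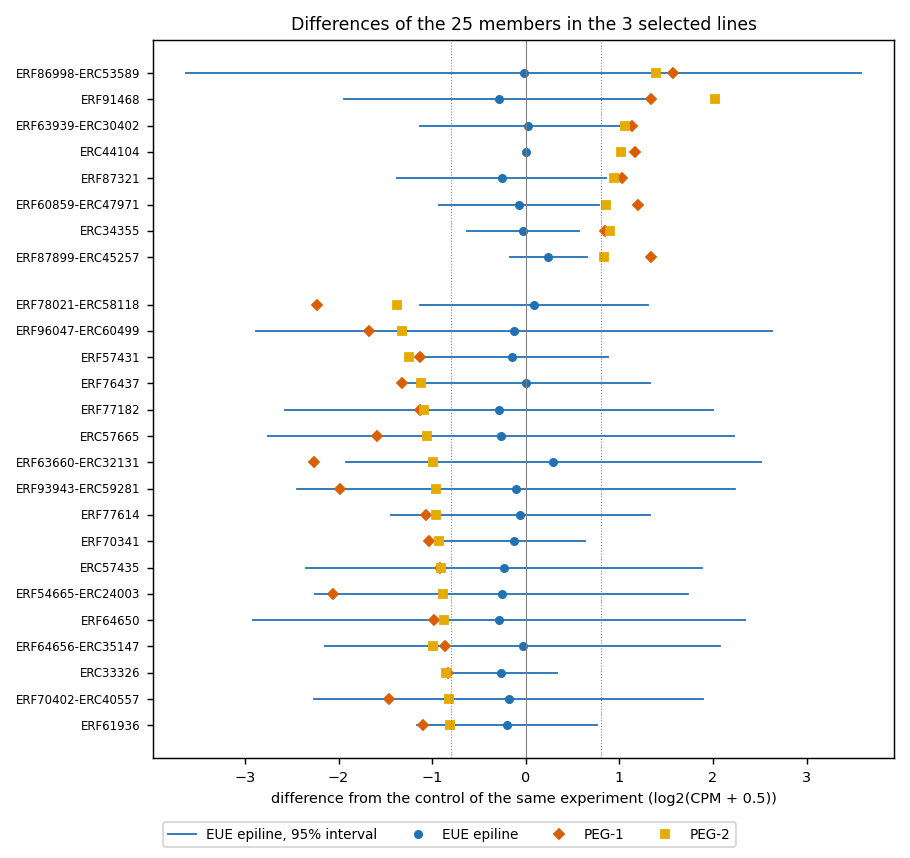
Difference from the control of the same experiment, in log2(CPM + 0.5), for the 8 raised members (upper block) and the 17 lowered members (lower block): diamonds for PEG-1, squares for PEG-2, and circles with a line for the EUE epiline and its 95% interval, taken without the pairs. Dotted lines stand at -0.8 and 0.8. The EUE lines of all 17 lowered members cross -0.8, while those of ERC34355, ERF87899-ERC45257 and ERF60859-ERC47971 stop short of 0.8. ERC44104 has no usable interval.

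The membership also hung on single libraries. None of the 25 met all criteria in each of the 12 runs that left out 1 library. The run without EUE control replicate 3 gave 5 lowered IDs, of which 3 were among the 17, and the run without EUE epiline replicate 1 gave 7, of which 5 were. With either gone the EUE means of most lowered members moved apart. Leaving out a PEG control library did the reverse. Without PEG control replicate 1, 143 raised and 129 lowered IDs met the criteria, and without PEG control replicate 2, 236 raised and 532 lowered. Lying on 1 side of a lone control library is a looser demand by construction. Why these runs differed from each other was not tested. The PEG control replicates differed by a chi-square per ID of 37.3, against 15.4 in PEG-1 and 15.6 in PEG-2. Without PEG-2 replicate 1 there were 13 raised and 54 lowered, and without EUE control replicate 1 there were 5 raised. ERC34355 met the criteria without each of the 6 EUE libraries in turn, and no lowered member did. ERC44104 met them too, but this was fixed in advance. With 0 counts in all 6, its EUE difference stays 0 whichever library is left out. Under TMM scaling, which sets libraries on a common scale from the bulk of IDs, 8 of 8 raised and 12 of 17 lowered members still met the criteria.

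In edgeR's quasi-likelihood test over all 12 libraries, 0 of 36410 IDs passed an adjusted p of 0.05 in PEG-1 against the PEG control (0% called) and 0 in PEG-2 (0% called), so 0 of the 25 members were called there. Without adjustment 1310 IDs had a p under 0.05 in PEG-1 and 684 did in PEG-2. DESeq2, another count model, called 145 IDs in PEG-1, or 0.398%, and 17 in PEG-2, or 0.0467%. The DESeq2 calls in PEG-1 held 4 members, the raised ERF87899-ERC45257 and the lowered ERF78021-ERC58118, ERF63660-ERC32131 and ERF93943-ERC59281, and those in PEG-2 held 0. Both lines share their control libraries and the choice used both contrasts, so nothing is read from these calls.

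The lines were then compared with each other, which the choice did not do, though it held both on the same side of the control. The size of the difference was larger in PEG-1 in 6 of 8 raised and 14 of 17 lowered members. Among all 368 IDs that met the PEG part it was so in 334, or 90.8%. Of those IDs 323 were raised and 45 lowered. That share thus mostly reflects raised IDs and is no like background for the lowered members. In PEG-2 against PEG-1 edgeR called 0 of 36410 IDs (0%) and DESeq2 called 1, which was no member. Without adjustment, 591 had an edgeR p under 0.05. ERF93943-ERC59281 had the largest gap, with PEG-2 above PEG-1 by 2.27 ± 1.03 (log2, SE; edgeR adjusted p = 1). ERF63660-ERC32131 was higher in PEG-2 by 1.64 ± 0.72, and ERF54665-ERC24003 by 1.61 ± 0.69, each at an edgeR adjusted p = 1. These gaps did not pass the test with 2 libraries per line, which does not show that the lines were equal.

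Finally, the mean of the 3 PEG groups was set against the mean of the 2 EUE groups. The members' differences there are a description and support nothing, because the choice asked for 1 CPM or more in the PEG libraries alone and set the level of PEG-1 and PEG-2, which hold 4 of the 6 PEG libraries. Experiment, growth occasion and plant stock cannot be told apart here. Of 36410 IDs edgeR called 10.2% higher and 10.2% lower in the PEG experiment. Among the raised members 7 of 8 were called higher and none lower, and among the lowered members 1 was called higher and 2 lower. With the replicate numbers as a block within each experiment, edgeR called 20.3% of the 36410 IDs higher and 21.8% lower. All 8 raised members were then called higher, and of the lowered members 2 were called higher and 5 lower. That fit also blocks the PEG libraries, for which 2 numbers do not establish a pairing, so the calls gained with it carry that limit.

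The fitted log2 difference of PEG from EUE, with its standard error, was 2.08 ± 0.33 for ERF60859-ERC47971, in which 6 of 6 EUE libraries lay below 5 of the 6 PEG libraries. It was 1.37 ± 0.27 for ERF63939-ERC30402, 0.83 ± 0.18 for ERF87899-ERC45257 and 1.37 ± 0.34 for ERC34355. ERF86998-ERC53589 was at 2.15 ± 0.58 and ERF91468, the raised member not called without the block, at 1.66 ± 0.61. ERF87321 was at 3.66 ± 0.89, but its EUE counts lie in EUE control replicate 3 and EUE epiline replicate 3 alone. Without either library an EUE group has no count, and with the block the EUE libraries numbered 1 and 2 have none. Fitted values of those runs are therefore not given. No fitted value is given for ERC44104, which is at 0 in the EUE libraries. The call of ERF86998-ERC53589 ended without PEG control replicate 2, PEG-1 replicate 2 or PEG-2 replicate 2, and that of ERC34355 without PEG-2 replicate 2.

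Among the lowered members, ERF57431 was lower in the PEG experiment, at -1.93 ± 0.39 (log2, SE), as was ERF70341, at -1.13 ± 0.24. ERF78021-ERC58118 was higher there by 1.55 ± 0.40, and its PEG control libraries held the high values. That call ended without PEG control replicate 2, PEG-1 replicate 1 or PEG-2 replicate 2. The other 14 lowered members did not pass without the block, with log2 differences from -0.94 to 0.91. With it, ERF76437 was called higher and ERC57665, ERF77614 and ERC57435 lower.

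Joined ERF-ERC IDs made up 4 of the 8 raised and 7 of the 17 lowered members, and 54.0% of the 27064 IDs. Single ERF IDs were 2 and 7 of them and 25.5% of all, and single ERC IDs 2 and 3, with 20.6% of all. What the prefixes stand for is not given in the sources used here.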

How the data were processed

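The deposited file holds the authors' raw read counts for each gene ID, in 1 column per library. GSNAP and SAMtools were used, per the submitters' processing notes. The sources used here give no version, genome, annotation, counting program or use of strand. Reads shared by near-identical or overlapping genes, common in this polyploid, could have been split or dropped. All 12 columns were matched by name, with 0 columns of other samples. Every value was even, as if both mates of a pair were counted. Totals ran from 36210542 to 42696798. The binomial interval and the floor cover counting error only. The intervals of the EUE differences come from the spread between libraries or between pairs. No replicates agreed within sampling noise, with a chi-square per ID of 15.4 to 50.5 on read pairs.

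Members were found on CPM of the column total with a pseudocount of 0.5. Differences on this scale understate the change of scarce IDs. The members, and the lists and tests, were chosen with earlier results of these data known. The main test was edgeR's (version 4.0.16, R version 4.3.3), with TMM, filterByExpr with a minimum count of 10, 1 mean per group over all 12 libraries, quasi-likelihood F-test, Benjamini-Hochberg over 36410 IDs and a threshold of 0.05. All 25 members passed this filter. Standard errors came from the F statistic. DESeq2 1.42.0 was an alternative. The labels give the EUE groups replicate numbers 1 to 3, and same-numbered EUE libraries deviated together with r from 0.61 to 0.74 over 17439 IDs, so they were taken as pairs from the data. The main fit has no block, and the fit with the replicate number as a block is given where it changes a call. The fits were tested on simulated data, with changes put only into IDs of 5 CPM or more and the same spread for all IDs. This does not show how they behave for scarcer IDs, which most members are. Members described in full were those with the largest smaller-of-both-lines difference, the highest level and the smallest p between the experiments. The others were named because every member is accounted for.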

Additional observations from a re-analysis of the deposited data

How the results depend on the processing

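The count of raised members, 8, was 3 with a pseudocount of 1 or of 2, 22 with a minimum difference of 0.6, 4 with one of 1, 5 and 13 with an EUE limit of 0.2 and 0.5, 323 with no EUE limit and 3 with a minimum mean of 5 CPM. The count of lowered members, 17, was 3 with a pseudocount of 2, 57 and 6 with a minimum difference of 0.6 and 1, 9 with an EUE limit of 0.2, 45 with no EUE limit and 5 with a minimum of 5 CPM. With 1 library left out in turn they ran from 5 to 236 and from 5 to 532. The limits on size, EUE difference and CPM change the counts by their construction. A larger pseudocount also shrinks the PEG differences of such IDs by construction. Its effect through the EUE limit was not tested. The edgeR count of calls in PEG-1 against the PEG control, 0, was 145 in DESeq2, 1 with only the PEG libraries and 1 with the replicate block. In PEG-2 it was 17 in DESeq2 and 1 with only the PEG libraries, and in PEG-2 against PEG-1 it was 1 in DESeq2. These 3 counts stayed at 0 in all 12 runs without 1 library. Members called in PEG-2 against PEG-1 numbered 0 under every alternative run. The 7448 calls between the experiments became 15350 with the replicate block and 4294 with a filter of 5 CPM in 2 libraries, and ran from 4112 to 8810 with 1 library left out. Of the raised members 5 to 8 were called in those runs, and 3 under the stricter filter, where only 3 were tested. Of the lowered members 2 to 4 were called in those runs and 7 with the replicate block. PEG libraries of the same number deviated together with r from 0.53 to 0.69 over 17439 IDs, but with 2 numbers per group this does not establish a pairing. The number of members whose EUE interval reached 0.8 in the members' direction, 4 raised and 17 lowered, was 5 and 17 with the EUE pairs. The block ended no call of a named member. At these levels, often under 100 counts, depth limits the precision of single libraries.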

Other observations

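Some members have neighbouring ID numbers. The lowered ERF64650 and ERF64656-ERC35147 are 6 apart in the ERF numbers, with 2 other IDs of 1 CPM or more between them. ERF64652, which lies between them, met the PEG part in the opposite direction, by 2.26 in PEG-1 and 1.18 in PEG-2. Within the EUE control both lowered IDs were highest in replicate 2 and lowest in replicate 3, as were most lowered members. The lowered ERF70341 and ERF70402-ERC40557 are 61 apart. The next closest pair, the lowered ERC57435 and ERC57665, is 230 apart in the ERC numbers. How the numbers relate to position in the genome is not given in the sources used here.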
